A study of Mus musculus with 36 samples.

Results

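In mouse bone marrow-derived dendritic cells, 110 of the 116556 ATAC-seq peaks on chromosomes 1 to 19 were more open after Sendai virus alone and little different after cGAMP or PAM alone. The deposited table holds 119751 peaks in all. The 110 peaks were chosen by their measured values. Each library's counts were scaled to its sum over chromosomes 1 to 19 without the largest-count peak (CPM), taken as log2(CPM + 0.5) and centred on the library median. The quantity d is the mean of a group's 2 libraries minus the mean of the 2 unstimulated libraries (Ctrl). A peak was a member where d was at least 1.5 in the Sendai virus group (S) and at most 0.5 in both the cGAMP group (cG) and the PAM group (P). S, cG, P and Ctrl therefore chose the members, and their values are given as a description.

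ATAC-seq, which maps open chromatin by the insertion of adapters with a transposase, was run on cells grown with GM-CSF from the bone marrow of female C57BL/6J mice aged 6 to 8 weeks. All groups shared this background and a stimulation of 6 h, with no ligand in Ctrl, and each of the 18 groups had 2 libraries. Single ligands were Sendai virus (SeV, group S), 3',3'-cGAMP (group cG), Zymosan depleted (group Z), PAM (group P), LPS (group L) and HMW (group H), as the labels spell them. The pairs were PL, PH, LH, PS, PcG, ScG, ZS and ZcG, and the triplets were PLH, PScG and ZScG, each named by its ligands. The labels do not say whether the 2 libraries of a group came from separate mice or cultures, so p-values measure only the spread between these libraries. In such bulk samples, more open cells and more opening per cell cannot be told apart.

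Sendai virus is an RNA virus whose RNA is sensed in the cytosol by RIG-I, which signals through MAVS. cGAMP is a cyclic dinucleotide that activates STING. Both pathways lead to the kinase TBK1 and the transcription factor IRF3, which together with NF-kappaB and IRF7 turn on the genes of interferon beta and interferon alpha, whereas PAM, LPS and zymosan act mainly through surface receptors.

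The 1 member that overlaps the promoter of an interferon gene lies at Ifna5, which encodes an interferon alpha. Its sequence is shown with the promoters of Ifna1 and Ifna4, neighbours in the same gene cluster that were not members (d of 0.83 and 1.43 in cG), and with that of Banf2, the other member over the start of a protein-coding gene. Each is the 250 bases before the annotated start, read 5′ to 3′ on the gene's strand, from the RefSeq promoter table for GRCm38.p6. Capitals mark matches to GAAANNGAAA, the core of the interferon-stimulated response element bound by IRF factors, searched on both strands (N is any base).

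Ifna5: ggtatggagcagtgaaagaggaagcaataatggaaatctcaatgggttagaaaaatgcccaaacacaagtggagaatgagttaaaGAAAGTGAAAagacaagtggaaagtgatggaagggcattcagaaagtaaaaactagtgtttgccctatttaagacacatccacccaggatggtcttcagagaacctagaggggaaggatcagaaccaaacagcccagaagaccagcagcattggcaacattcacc
Ifna1: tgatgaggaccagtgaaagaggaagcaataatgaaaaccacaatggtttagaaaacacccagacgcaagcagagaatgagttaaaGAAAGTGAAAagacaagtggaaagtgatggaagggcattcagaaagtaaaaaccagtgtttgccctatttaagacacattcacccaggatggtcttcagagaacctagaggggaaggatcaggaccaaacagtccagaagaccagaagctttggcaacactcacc
Ifna4: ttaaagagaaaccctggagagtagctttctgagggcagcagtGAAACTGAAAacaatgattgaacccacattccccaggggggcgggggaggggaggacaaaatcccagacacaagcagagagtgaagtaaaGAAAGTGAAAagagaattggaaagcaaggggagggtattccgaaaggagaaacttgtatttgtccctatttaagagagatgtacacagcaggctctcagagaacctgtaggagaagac
Banf2: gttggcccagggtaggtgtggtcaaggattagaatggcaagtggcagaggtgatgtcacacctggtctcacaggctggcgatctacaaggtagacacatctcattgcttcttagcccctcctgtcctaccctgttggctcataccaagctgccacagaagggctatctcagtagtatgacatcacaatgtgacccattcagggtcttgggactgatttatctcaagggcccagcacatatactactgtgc

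The Ifna5 window is chr4:88835275-88835524 on the plus strand, inside the member peak at chr4:88835268-88836138. Its 1 match starts 165 bases before the gene's start, as does the 1 match in the Ifna1 window at chr4:88849837-88850086, also on the plus strand. Those 2 windows are 82.0% identical without gaps. The Ifna4 window, chr4:88841566-88841815 on the plus strand, holds 2 matches. The Banf2 window, chr2:144032852-144033101 on the plus strand, holds none of these letters. Of 32851 promoter windows of the same length, 978 (2.98%) hold such a match, and a match in the letters shows no binding. Since the Ifna genes are close copies, reads could be split or shared between them, and values at single Ifna genes are uncertain to that extent.

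The members were faint peaks. Their median CPM was 0.38 and 0.406 in the Ctrl libraries and 2.78 and 2.60 in the S libraries. In counts, the medians were 3 and 3.5 in Ctrl and 32 in each S library, and 20 and 15 members had no count in the Ctrl libraries. Median width was 353.5 bases, against 451 over all peaks of chromosomes 1 to 19. Few members lay at gene starts. Within 1 kb of a protein-coding gene's start in the RefSeq table were 3 of the 104 members with entries on their chromosome (2.88%), against 10.8% of all peaks. This was not particular to the members. Of the peaks with d of at least 1.5 in both S and cG and at most 0.5 in P, 13 of 831 (1.56%) lay there. Another 5 members lay within 1 kb of the start of a long non-coding RNA gene, D830013O20Rik, BB123696, Gm30615, Gm52528 and Gm30826, which makes 8 for genes of any kind (7.69%), against 13.0%. In contrast, 66 of 110 (60.0%) lay inside a protein-coding gene, close to the 59.4% of all peaks, and whether in an exon or an intron was not analysed here. Within 50 kb of a protein-coding gene were 99 members, and 4 were over 100 kb away. Chromosomes 3, 13 and 12 held 11, 10 and 9 members among their 6772, 6011 and 4915 peaks. Pairs within 50 kb of each other were formed by 8 members, at Magi3, AI987944, Trank1 and Cnot6. An expected number was not computed.

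Just inside the threshold in S were members near Marveld2, in Ccdc88c and near Capsl (d of 1.504, 1.504 and 1.505). Just outside it were peaks in Nedd4l, Adarb1 and Gmds (1.497, 1.496 and 1.491). At the cG threshold, members in Pcp4, near Dtna and in Kdm1b were inside (0.498, 0.497 and 0.495) and peaks in Car10, near Tsc22d2 and near Psma1 outside (0.502, 0.503 and 0.506). At the P threshold, members near Sec24b, near Slc38a6 and in AI987944 were inside (0.498, 0.496 and 0.477) and peaks in Atp6v1b2, near Asb7 and near Man1a outside (0.504, 0.522 and 0.548).

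The 12 members with the highest d in S were taken among those with both S libraries above both Ctrl libraries. They were spread over the genome and had d from 1.99 to 2.56. They lay near Dtna, in Hdgfl2, Zdhhc21 and Cdc42bpb, near Tas1r2, in AI987944, Erc1, Tnr, Cdyl2 and Magi3, near Sptssa and in Dip2c. Among these genes, Zdhhc21 encodes a protein palmitoyltransferase, Cdc42bpb a kinase that acts downstream of Cdc42, Erc1 a scaffold protein, Tnr the matrix protein tenascin-R, Cdyl2 a chromodomain protein and Tas1r2 a sweet taste receptor subunit. None of the 12 genes is in the lists of RNA sensing, cGAMP sensing, interferon or interferon-stimulated genes, and nothing is read from this.

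The peak 41791 bases from Dtna, which encodes a dystrobrevin of the dystrophin complex, had the highest d (chr18:23701510-23701776). It had CPM of 0 in both Ctrl libraries, 2.86 and 2.68 in S, 0.205 and 0.276 in cG, and 0.198 and 0 in P. Both S libraries stood far above the other 6. Outside the groups that chose it, CPM was 0 and 0 in Z, 1.33 and 1.41 in ZS, 0.701 and 1.04 in ZcG, 0 and 0.816 in PS, 0.622 and 1.55 in PcG, 1.83 and 2.10 in ScG, 2.94 and 3.18 in ZScG, and 1.05 and 1.02 in PScG. Beside zymosan the virus libraries lay above those with cGAMP only, whereas beside PAM they lay below 1 of the PcG libraries. In H, L, PL, PH, LH and PLH it ranged from 0 to 0.525.

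The peak in Zdhhc21 (chr4:82850544-82850952) had CPM of 0.760 and 0.348 in Ctrl, 7.03 and 4.71 in S, 0.513 and 1.75 in cG, and 0.297 and 0.662 in P. With zymosan it had 0.306 and 0.614 in Z, 2.93 and 4.00 in ZS, 3.36 and 2.87 in ZcG, and 7.88 and 7.20 in ZScG. ZS and ZcG overlapped and both lay above Z. With PAM it had 2.75 and 2.99 in PS, 1.73 and 1.64 in PcG, and 4.21 and 3.44 in PScG, and it had 7.09 and 9.05 in ScG. Here the virus libraries lay above those with cGAMP only.

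**Figure D1:**
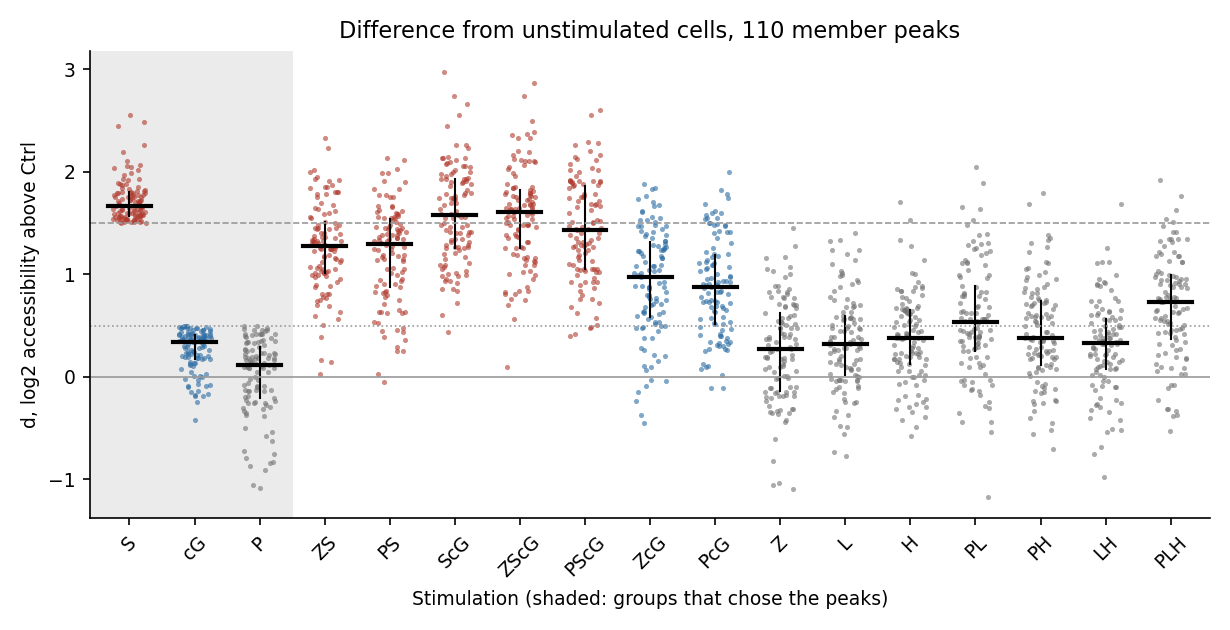
Difference d from unstimulated cells (y axis, log2 units) of the 110 members in each of 17 stimulations (x axis). Points are peaks, thick bars medians and thin bars the interquartile range; red marks groups with Sendai virus, blue those with cGAMP and no virus, grey the others, and lines mark 0, 0.5 and 1.5. In the shaded groups the rule set the values; outside them, medians are 1.28 to 1.60 with virus, 0.98 and 0.87 with cGAMP beside zymosan or PAM, and 0.27 to 0.73 elsewhere.

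In the 14 groups that the rule did not use, the members were high wherever virus was present. The median d was 1.60 in ZScG, 1.58 in ScG, 1.43 in PScG, 1.29 in PS and 1.28 in ZS. Next came the groups with cGAMP beside another ligand, 0.98 in ZcG and 0.87 in PcG. The median of 0.34 in cG alone was set by the rule, which held d there to at most 0.5. It is therefore no measure against which ZcG and PcG can be compared. Below them lay PLH (0.73), PL (0.53), PH (0.38), H (0.38), LH (0.33), L (0.32) and Z (0.27). The spread within a group was wide, with an interquartile range of 1.01 to 1.51 in ZS and 0.58 to 1.32 in ZcG, so neighbours in this order overlap. Over all peaks the median d was between -0.06 and 0.05 in every group.

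Counts of members past the threshold of 1.5 show the same order. They were 28 in ZS (3.76% of all peaks), 30 in PS (5.26%), 60 in ScG (4.7%), 65 in ZScG (4.8%) and 49 in PScG (6.07%). Without virus they were 15 in ZcG (3.3%) and 12 in PcG (4.75%). They were 5 in PL (4.03%), 5 in PLH (4.12%), 2 in PH (3.96%) and 2 in H (0.80%). LH had 1 (2.62%), and L (2.39%) and Z (0.81%) had 0. The Ctrl libraries that helped to choose the members enter each of these values, and nothing is read from the shares in brackets. At most 0.5 was d of 23 members in ZcG and of 27 in PcG, whereas the rule held all 110 to that in cG. The share of all peaks at or below 0.5 was not computed, so nothing is read from these counts.

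The tests below use contrasts that hold no library of S, cG, P or Ctrl. All 110 members passed the low-count filter and entered the fit of 119464 peaks in edgeR (quasi-likelihood test, Benjamini-Hochberg adjustment over all tested peaks, threshold 0.05), and each share of tested peaks given below is the background for the members' count.

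Virus added to zymosan (ZS against Z) gave the most calls. Of 110 members, 45 (40.9%) rose, against 6.63% of all tested peaks, and 0 fell, against 8.53%. At an unadjusted p under 0.05, 71 members were higher and 0 lower, against 13.3% and 14.9% of tested peaks, and DESeq2 called 41 higher and 0 lower. The median log2 fold change was 1.57 (interquartile range 1.00 to 2.34) against 0.02 over all peaks, and 107 members were above 0, against 50.9% of tested peaks. Both ZS libraries lay above both Z libraries at 88 members (80.0%), against 24.8% of all peaks. The count was 34, 24, 29 and 16 without ZS replicate 1, ZS replicate 2, Z replicate 1 or Z replicate 2, with medians of 1.53 to 1.64. The mitochondrial share of counts was 61.7% ± 1.06 (SD, n = 2) in Z and 54.5% ± 5.04 in ZS, and its part in the result was not tested.

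Ifna5 had the smallest adjusted p among the members in ZS against Z. Its peak had CPM of 2.03 and 0.464 in Ctrl, 5.29 and 6.49 in S, 2.46 and 1.11 in cG, and 1.29 and 0.0945 in P. It had 0 and 0.614 in Z, 4.12 and 5.65 in ZS, 2.94 and 1.56 in ZcG, 5.08 and 6.53 in PS, 1.24 and 1.38 in PcG, 3.55 and 3.02 in ScG, 3.87 and 3.68 in ZScG, and 2.69 and 2.51 in PScG. H, L, PL, PH, LH and PLH ranged from 1.08 to 2.56. All ZS and PS libraries lay above every library without virus, whereas the PScG libraries did not. The log2 fold change was 3.71 ± 0.63 (SE) in ZS against Z, with an edgeR adjusted p of 1.55e-06. It was 2.70 ± 0.70 in ZcG against Z (edgeR adjusted p of 0.0045), which passed in 2 of the 4 fits without 1 library.

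Banf2 encodes a relative of the DNA-binding barrier-to-autointegration factor. Its peak (chr2:144032670-144033104) had CPM of 0.633 and 0.695 in Ctrl, 3.56 and 4.30 in S, 1.13 and 0.921 in cG, and 0.198 and 0.378 in P. It had 0.306 and 0.737 in Z, 5.19 and 4.12 in ZS, 2.52 and 0.782 in ZcG, and 4.27 and 3.01 in ZScG. With PAM it had 1.5 and 1.09 in PS, 0.898 and 0.603 in PcG, and 2.57 and 1.86 in PScG, and it had 4.35 and 1.84 in ScG. ZS lay above Z without overlap, by 2.98 ± 0.67 (SE) in log2 (edgeR adjusted p of 0.000436), while ZcG against Z gave 1.58 ± 0.74 (edgeR adjusted p of 0.178). In H, L, PL, PH, LH and PLH the peak ranged from 0 to 1.88.

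The remaining member within 1 kb of a protein-coding gene's start lay in Niban3 (chr8:71598459-71598747), 751 bases away. It had CPM of 0.253 and 0 in Ctrl, 1.65 and 2.11 in S, 0.820 and 0 in cG, and 0.397 and 0.473 in P. Both Z libraries had 0, and ZS had 0.798 and 1.53, ZcG 0.280 and 1.17, PS 2.67 and 2.01, PcG 0.898 and 0.172, ScG 1.83 and 1.57, ZScG 2.14 and 1.17, and PScG 1.29 and 1.77. H, L, PL, PH, LH and PLH ranged from 0.381 to 1.63 and overlapped the libraries with virus.

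No count in either Z library was found at 7 members. Against the floor of 3 counts over the Z group, accessibility in ZS was at least 11.3-fold higher at Ppargc1b, which encodes a transcriptional coactivator of energy metabolism. It was at least 8.86-fold higher at Pus10, a pseudouridine synthase, at least 6.72-fold higher near Dtna and at least 5.81-fold higher at Niban3. All 7 were called in ZS against Z, and with them at their bounds the members' median log2 fold change was again 1.57. Floors and intervals cover counting error only. Of the members named here, the peaks at Ifna5, Zdhhc21, Banf2, Trio, Ppargc1b and Pus10 were called in ZS against Z without any 1 library. The calls at Hdgfl2, Cdc42bpb, Niban3, AI987944 and near Dtna were each lost without at least 1. So were those in Slc5a10 and Fam83g, in 1700025G04Rik and near Epb41l5.

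At the other end were members near Cav2 (caveolin-2), Katnal1, Ubxn2a and Rnf212, with the lowest log2 fold changes in ZS against Z, -0.54, -0.37, -0.11 and 0.19. None passed the test, with edgeR adjusted p-values from 0.727 to 0.911. The Cav2 peak shows the pattern in its counts, with CPM of 2.34 and 1.95 in S and 0 and 0.464 in Ctrl, but 0.917 and 0.983 in Z and 1.20 and 0.235 in ZS.

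**Figure D2:**
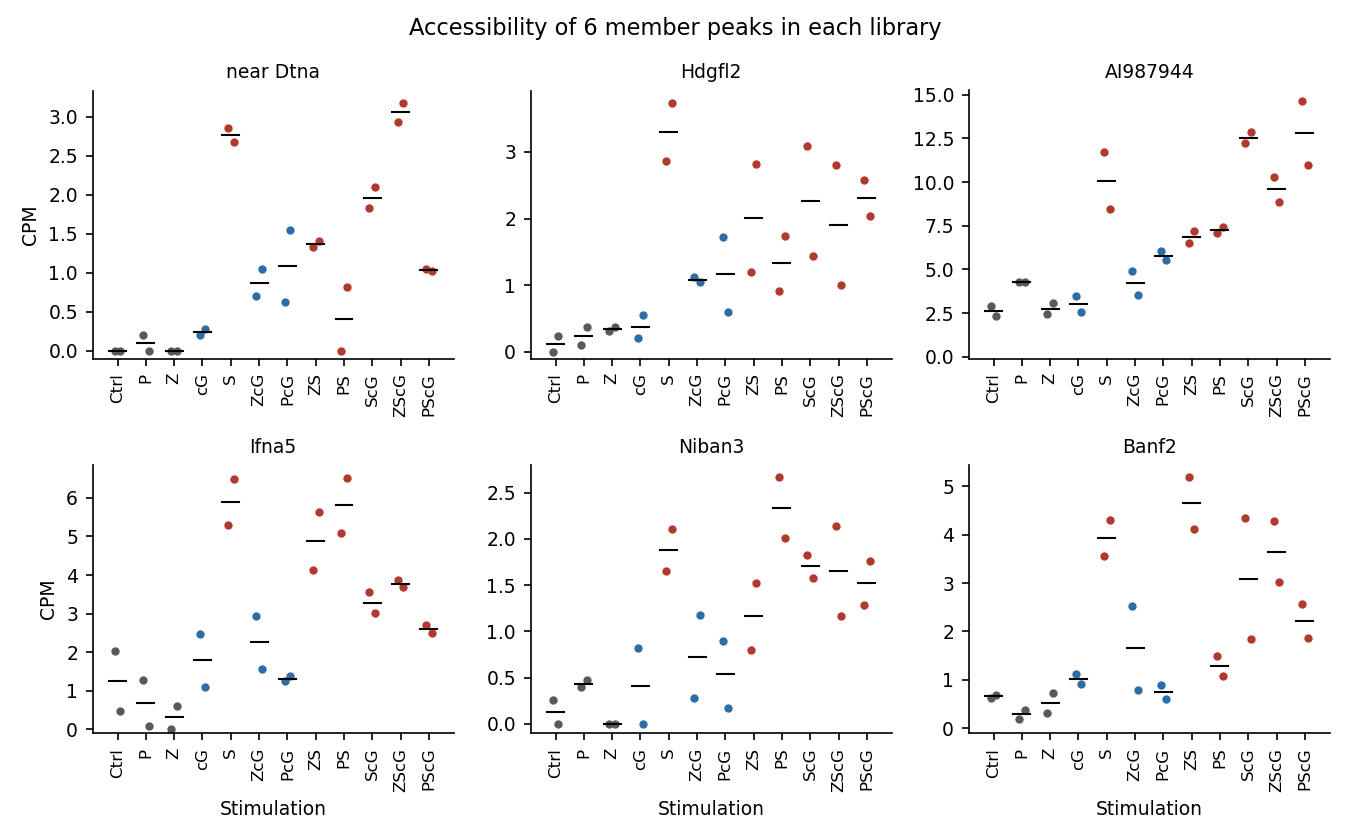
CPM (y axis) of 6 members in each library of 12 groups (x axis); points are single libraries, bars the mean of 2, red groups with Sendai virus, blue those with cGAMP only or beside zymosan or PAM, grey the rest. At Ifna5 the S, ZS and PS libraries sit between 4.12 and 6.53, while at Banf2 the PS libraries (1.5 and 1.09) sit below those of ZS (5.19 and 4.12).

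With cGAMP already present, adding virus gave fewer calls in the same direction. In ZScG against ZcG, 10 members (9.09%) rose, against 0.949% of tested peaks, and 0 fell, against 1.84%. The median log2 fold change was 0.96, with 99 members above 0, against 49.6% of tested peaks. Higher at an unadjusted p under 0.05 were 41 and lower 0, against 6.98% and 8.91%. Both ZScG libraries lay above both ZcG libraries at 61 members, against 17.2% of all peaks. Mitochondrial shares were 58.3% ± 0.556 (SD, n = 2) in ZScG and 63.0% ± 0.157 in ZcG without overlap, and their part was not tested. DESeq2 called 3 higher and 0 lower. The edgeR count was 4, 3, 0 and 4 without ZScG replicate 1, ZScG replicate 2, ZcG replicate 1 or ZcG replicate 2.

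Beside PAM plus cGAMP (PScG against PcG), 2 members rose, against 0.202% of tested peaks, and 0 fell, against 0.21%. Their median was again well above that of all peaks, 0.87 against 0.01 in log2, with 99 members above 0, against 50.6% of tested peaks. At an unadjusted p under 0.05, 33 were higher and 0 lower, against 5.23% and 5.18%. Both PScG libraries lay above both PcG libraries at 71 members, against 18.6% of all peaks. Mitochondrial shares were alike here, 45.1% in each group. DESeq2 called 1 higher and 0 lower, and the edgeR count was 0 without PScG replicate 1, PcG replicate 1 or PcG replicate 2. The effect of virus in this setting did not pass a test of difference from that in ZScG against ZcG at any member. That interaction called 0 members higher and 0 lower, against 0.00753% and 0.00419% of tested peaks, and by DESeq2 also 0 higher and 0 lower, with a median of -0.05. At an unadjusted p under 0.05, 0 members were higher and 5 lower, against 4.57% and 3.58%.

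The 3 contrasts that add virus share no library with each other. Of the members, 88 (80.0%) had a log2 fold change above 0 in all 3, against 20.5% of all tested peaks. Calls were less uniform, since 44 members (40%) were called in 1 of them, 5 (4.55%) in 2, 1 (0.909%) in all 3 and 60 (54.5%) in none. Over all tested peaks these shares were 6.91%, 0.389%, 0.0301% and 92.7%. The 5 members called in both zymosan contrasts are 11.1% of the 45 and 50% of the 10.

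The member called in all 3 lay in AI987944, 1095 bases from its start (chr7:41390897-41392165). Its peak had CPM of 2.91 and 2.32 in Ctrl, 11.7 and 8.44 in S, 3.49 and 2.58 in cG, and 4.26 and 4.25 in P. It had 2.45 and 3.07 in Z, 6.52 and 7.17 in ZS, 4.90 and 3.52 in ZcG, 10.3 and 8.87 in ZScG, 7.08 and 7.45 in PS, 6.08 and 5.51 in PcG, 14.6 and 11 in PScG, and 12.2 and 12.9 in ScG. In each of these pairs of groups the libraries with virus lay above those without it. The log2 fold changes were 1.19 ± 0.33, 1.15 ± 0.31 and 1.18 ± 0.26 (SE), with edgeR adjusted p-values of 0.00653, 0.0181 and 0.00913, and these calls passed in 2, 1 and 1 of the 4 fits without 1 library. A second member 10162 bases away in the same gene gave 1.98, 0.73 and 0.90, none past the threshold.

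The other 4 members called in both zymosan contrasts are named after their values were seen. They lay in Trio (a guanine nucleotide exchange factor), in Slc5a10 and Fam83g, which overlap, in 1700025G04Rik and near Epb41l5. Their calls in ZScG against ZcG were each lost without at least 1 library. All but that in Trio were lost without each of the 4 libraries in turn. The peak in Slc5a10 and Fam83g (chr11:61686950-61687437) had CPM of 1.53 and 2.09 in Z, 5.99 and 6.70 in ZS, 1.54 and 2.35 in ZcG, 6.01 and 6.36 in ZScG, 1.58 and 2.45 in PS, 0.691 and 1.46 in PcG and 2.34 and 2.60 in PScG. Beside zymosan, virus libraries stood apart from those with cGAMP only. Called in ZScG against ZcG only among the zymosan contrasts were members near Ly6c2, in Magi3, Copz1 and Trank1 and at Oaf. Each of these calls was also lost without at least 1 library. In Magi3, a scaffold protein gene, 1 of its 2 members (chr3:104125406-104125808) was called in ZScG against ZcG (2.35 ± 0.64 in log2, edgeR adjusted p of 0.0207) and in PScG against PcG (2.53 ± 0.59, edgeR adjusted p of 0.0163). That peak had CPM of 0.701 and 0.782 in ZcG, 2.80 and 5.19 in ZScG, 0.691 and 0.517 in PcG and 4.56 and 2.42 in PScG, with no overlap within either pair. Each of its 2 calls passed in 1 of the 4 fits without 1 library.

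**Figure D3:**
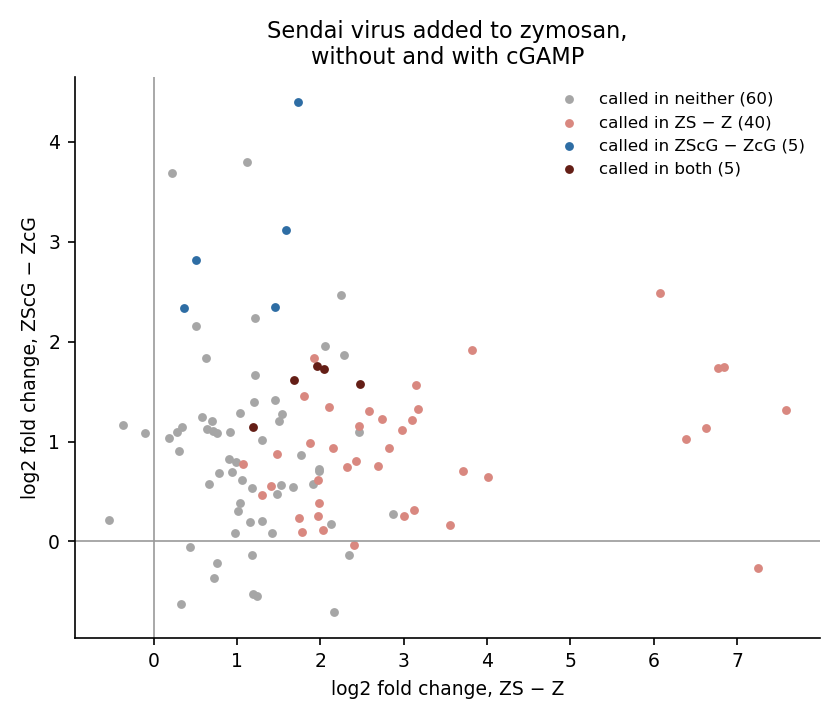
Fitted log2 fold change of each member when virus was added to zymosan (x axis, ZS against Z) and to zymosan plus cGAMP (y axis, ZScG against ZcG), which share no library. Colours mark the contrasts in which a peak was called, 45 on the x axis and 10 on the y axis, 5 in both; the 7 points beyond 6 on the x axis had no count in Z, and their fitted values are not sizes.

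The rule sets virus against cGAMP given alone, and the same comparison was made beside other ligands. In ZcG against Z, 22 members (20%) rose with cGAMP, against 4.12% of tested peaks, and 0 fell, against 4.95%. The median log2 fold change was 1.17 (1.14 with peaks at 0 in Z at their bounds), and both ZcG libraries lay above both Z libraries at 61 members, against 24.6% of all peaks. This contrast and ZS against Z share the Z libraries. DESeq2 called 15 higher and 0 lower, a fit of these 2 groups alone called 8, and the count was 8, 4, 13 and 13 without Z replicate 1, Z replicate 2, ZcG replicate 1 or ZcG replicate 2. Z and ZcG had mitochondrial shares of 61.7% and 63.0%, whose part was not tested.

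Set directly against each other beside zymosan (ZS against ZcG), virus and cGAMP differed at 0 members in either direction, against 0.163% higher and 0.295% lower over tested peaks. DESeq2 also called 0 higher and 0 lower. At an unadjusted p under 0.05, 17 members were higher with virus and 0 lower, against 5.6% and 6.53% of tested peaks. The median log2 difference was 0.51, and 88 of 110 were above 0, against 49.9% of tested peaks. Both ZS libraries lay above both ZcG libraries at 43 members (39.1%), against 17.0% of all peaks. Mitochondrial shares were 54.5% in ZS and 63.0% in ZcG, and their part was not tested. Beside PAM (PS against PcG), 1 member was higher with virus, against 0.0804% of tested peaks, and 0 were lower, against 0.0486%. The median was 0.43, with 86 members above 0, against 51.1% of tested peaks. Both PS libraries lay above both PcG libraries at 55 members (50%), against 22.2% of all peaks, and mitochondrial shares were alike at 45.8% and 45.1%.

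That 1 member was Ifna5, at 2.16 ± 0.43 (SE) in log2 with an edgeR adjusted p of 0.00362. Its PS libraries had CPM of 5.08 and 6.53 and its PcG libraries 1.24 and 1.38, with no overlap. Without PS replicate 2, PcG replicate 1 or PcG replicate 2 the call was lost, with adjusted p-values up to 0.201, and DESeq2 also called 1. In ZS against ZcG the same peak gave 1.02 ± 0.45 with an edgeR adjusted p of 0.328.

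cGAMP added on top of virus called no member. In ZScG against ZS, 0 members were higher and 0 lower, against 0.0142% and 0.0444% of tested peaks, and in PScG against PS also 0 and 0, against 0.368% and 0.234%. DESeq2 called 0 higher and 0 lower in both. At an unadjusted p under 0.05, 13 members were higher and 0 lower in the first, against 3.77% and 4.69% of tested peaks. In the second, 15 were higher and 3 lower, against 4.68% and 5.11%. The medians were 0.39 and 0.38 in log2. Mitochondrial shares were 58.3% in ZScG, 54.5% in ZS, 45.1% in PScG and 45.8% in PS.

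**Figure D4:**
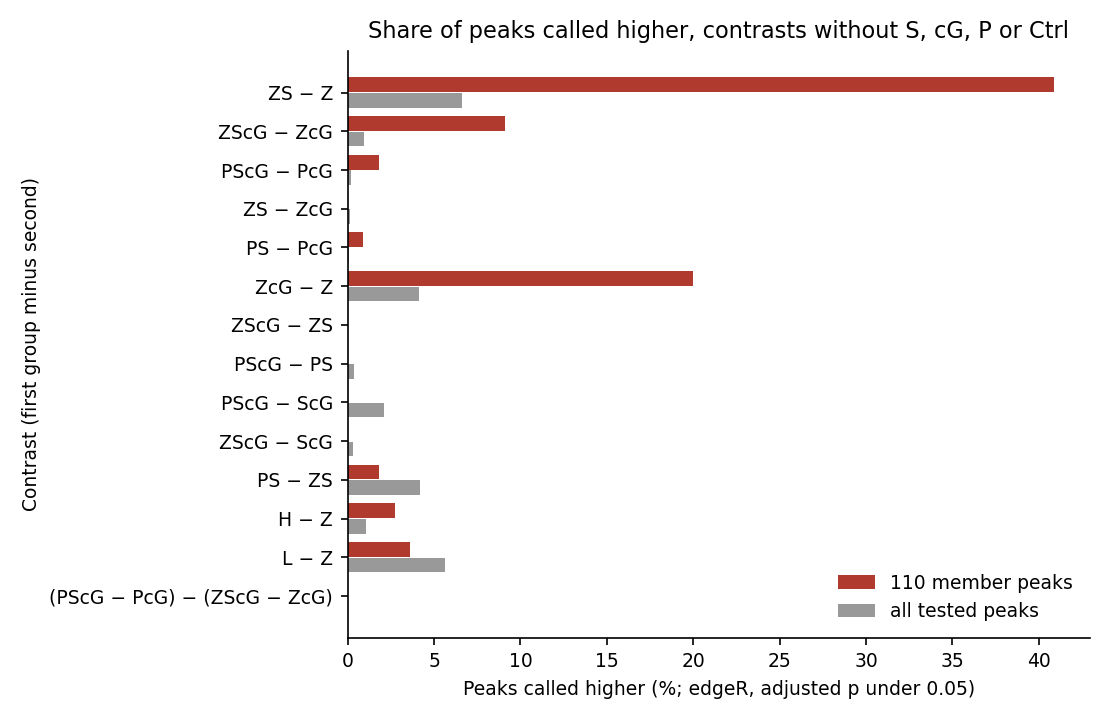
Share of peaks called higher (x axis, percent; edgeR, adjusted p under 0.05) in each of 14 contrasts (y axis), for the 110 members (red) and all 119464 tested peaks (grey). The members' bar reaches 40.9% in ZS against Z and 20% in ZcG against Z, and 0 to 0.909% where virus and cGAMP are compared directly.

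Peaks that met the same conditions for S and P, whatever their value in cG, give a comparison. Of 1818 peaks with d of at least 1.5 in S and at most 0.5 in P, 870 had d of at least 1.5 in cG too, 838 had a d in cG between the thresholds and 110 were the members. In ZS against Z, 554 of the 870 (63.7%) and 360 of the 838 (43.0%) rose, against 45 of the 110 members (40.9%). The medians did not follow that order, at 1.48, 1.30 and 1.57 in log2. Median CPM in S was 5.11 in the 870 and 2.68 in the members, and its part in the calls was not tested. In ZScG against ZcG the called shares ran the other way, with 16 (1.84%), 29 (3.46%) and 10 (9.09%), and with medians of 0.04, 0.41 and 0.96 in log2. In PScG against PcG the called shares were close, 18 (2.07%), 17 (2.03%) and 2 (1.82%), with medians of 0.26, 0.52 and 0.87. In ZcG against Z, 539 (62.0%), 238 (28.4%) and 22 (20%) rose, with medians of 1.51, 1.11 and 1.17. The differences between these sets were not tested. Only 8 peaks met the mirror rule, with d of at least 1.5 in cG and at most 0.5 in S and P.

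Between PAM and zymosan beside virus (PS against ZS), 2 members rose (1.82%), against 4.18% of tested peaks, and 4 fell (3.64%), against 2.98%, with a median of -0.07. These shares are near or below the background and show nothing about the members as a set. Higher with PAM were peaks in Chd6, a chromatin remodeller gene (1.66 ± 0.47, edgeR adjusted p of 0.012), and 137413 bases from Zfp608, a zinc finger gene (2.28 ± 0.75, edgeR adjusted p of 0.0419). Lower with PAM were peaks in Slc5a10 and Fam83g (-1.72 ± 0.41, edgeR adjusted p of 0.00213), Banf2 (-1.94 ± 0.54, edgeR adjusted p of 0.01), Gipc2 (-1.84 ± 0.60, edgeR adjusted p of 0.0381) and Itpk1, an inositol phosphate kinase gene (-1.21 ± 0.33, edgeR adjusted p of 0.00977).

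At Chd6 the CPM was 3.92 and 5.33 in PS, 1.33 and 1.41 in ZS, 5.03 and 5.48 in PScG and 2.27 and 1.67 in ZScG, so the PAM libraries lay higher with and without cGAMP. At Itpk1 it was 3.42 and 3.48 in PS, 6.65 and 8.35 in ZS, 3.98 and 4.83 in PScG and 9.21 and 10.5 in ZScG, the opposite order. Mitochondrial shares were 45.8% in PS and 54.5% in ZS, and their part was not tested. DESeq2 called 1 higher and 2 lower. The calls near Zfp608 and in Gipc2 passed in 0 of the 4 fits without 1 library, those in Chd6 and Itpk1 in 1. Without 1 library, 1 to 2 were called lower, and the count of higher calls was 1, 0, 1 and 0 without PS replicate 1, PS replicate 2, ZS replicate 1 or ZS replicate 2. With total-count scaling the median log2 difference in this contrast was 0.13 in place of -0.07, while that of all peaks moved by 0.21.

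Added to virus plus cGAMP, neither ligand called a member. In PScG against ScG, 0 members were higher and 0 lower, against 2.11% and 2.42% of tested peaks, with a median of -0.16 (0.12 with total-count scaling). Higher at an unadjusted p under 0.05 were 2 and lower 9, against 8.3% and 8.35%. In ZScG against ScG, 0 were higher and 0 lower, against 0.324% and 0.448%, with a median of 0.02. Here 0 were higher and 2 lower at an unadjusted p under 0.05, against 5.28% and 6.85%. DESeq2 called 1 lower in the first and 0 in the second, and 0 higher in both. Shares of mitochondrial counts were 59.4% in ScG, 58.3% in ZScG and 45.1% in PScG.

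Few members were called between ligands without virus or cGAMP. In H against Z, 3 members rose, against 1.04% of tested peaks, and 1 fell, against 2.7%. In L against Z, 4 rose, against 5.66%, and 2 fell, against 7.77%. At an edgeR unadjusted p under 0.05, 21 members passed in H against Z, 19 of them higher, against 16.8% and 7.03% of tested peaks. In L against Z these were 20 and 14, against 26.0% and 12.2%. Both H libraries lay above both Z libraries at 31 members (28.2%), against 20.1% of all peaks, and below at 14 (12.7%), against 25.5%. For L these were 34 (30.9%), against 26.7%, and 21 (19.1%), against 26.5%. Medians were 0.31 and 0.34 (0.26 in L against Z with peaks at 0 in Z at their bounds). Rises in both contrasts were at Niban3 and Pus10, which had no count in Z. Ifna5 also rose in H against Z (2.37 ± 0.69, edgeR adjusted p of 0.0279), and Nr1d2, which encodes a clock repressor, and Tsg101 in L against Z. The Tsg101 peak had no count in Z either, and its call was lost without each of the 4 libraries in turn. Falls were in Cdyl2 for H against Z, and in Itpk1 and 8175 bases from Bag5 for L against Z. Itpk1 was lower in L than in Z by the largest fitted step, -2.30 ± 0.40 (edgeR adjusted p of 2.34e-06), with CPM of 1.25 and 1.37 in L and 6.57 and 4.79 in Z. Without H replicate 2 or Z replicate 1, the count of rises in H against Z was 0, and without Z replicate 2 it was 1. Without L replicate 2 that in L against Z was 2. Mitochondrial shares were 51.6% in H, 44.4% in L and 61.7% in Z, and their part was not tested.

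The Itpk1 peak (chr12:102637937-102638538) stands out in Z itself. Its CPM was 1.77 and 1.74 in Ctrl, 8.33 and 8.2 in S, 2.56 and 2.58 in cG and 0.992 and 0.473 in P, so the Z libraries lay between those of S and of the other 3. With ZcG it had 3.50 and 6.65 and with PcG 2.35 and 3.19, and LH, PL, PH and PLH ranged from 0.403 to 1.76.

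The interferon gene cluster on chromosome 4 held 2 members, Ifna5 and a peak 2617 bases from Gm13283 (chr4:88764201-88764586), 70681 bases apart. Of the 58 peaks between Ifnb1 and Ifna1 (chr4:88522158-88850278), 8 had d of at least 1.5 in S and 4 in cG. Over all peaks these shares were 4.06% and 2.67%. The median d of the 58 peaks was -0.18 in S and -0.12 in cG, so most of the cluster did not open. The peak near Gm13283 had CPM of 0.253 and 0.579 in Ctrl, 2.00 and 3.41 in S, 0.923 and 0.552 in cG, 0.459 and 0.983 in Z, 1.60 and 2.71 in ZS, and 1.83 and 2.56 in PS. Its rise in ZS against Z, 1.43 ± 0.65 in log2, did not pass (edgeR adjusted p of 0.126).

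Of 20 type I and III interferon genes, 9 had a peak within 1 kb of a start. All but that of Ifnk, 276 bases away, lay over the start. Of all tested peaks, 6.63% rose and 8.53% fell in ZS against Z, and 4.12% and 4.95% in ZcG against Z. Shares that rose were 0.949% in ZScG against ZcG and 0.202% in PScG against PcG. Among the 9 genes, 5 rose and 0 fell in ZS against Z. They were Ifnb1 (2.44 in log2), Ifna2 (2.96), Ifna4 (1.86), Ifna1 (2.26) and the member Ifna5 (3.71). With cGAMP in ZcG against Z, 4 rose and 0 fell, Ifnb1 (1.54), Ifna2 (2.51), Ifna14 (1.97) and Ifna5 (2.70). At Ifna14 and Ifna5 the Z group lay below Ctrl, with d of -1.06 and -1.05, and rises over Z at these genes include that step. Their d in ZcG was 0.31 and 0.80. In ZScG against ZcG, 1 rose, Ifna4 (1.61, edgeR adjusted p of 0.0376, lost without each of the 4 libraries in turn), and in PScG against PcG 0 did.

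Levels in cG varied between the promoters of the cluster. At Ifnb1 the CPM was 1.98 ± 0.646 (SD, n = 2) in Ctrl, 13.2 ± 0.683 in S and 6.97 ± 0.431 in cG. At Ifna2 it was 0.422 ± 0.0591, 7.30 ± 1.94 and 3.67 ± 0.407, and at Ifna4 0.717 ± 0.297, 5.21 ± 1.24 and 2.95 ± 0.910. Ifna5 had 1.25 ± 1.11, 5.89 ± 0.850 and 1.78 ± 0.959. Its cG libraries (2.46 and 1.11) overlapped its Ctrl libraries (2.03 and 0.464). Ifna1, Ifna11 and Ifna14 had cG levels of 1.57 ± 0.531, 1.70 ± 0.077 and 2.62 ± 0.062, and d in cG was 0.45 at Ifna14, close to the 0.41 at Ifna5. The values of S, cG and Ctrl chose Ifna5, so these levels are a description.

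**Figure D5:**
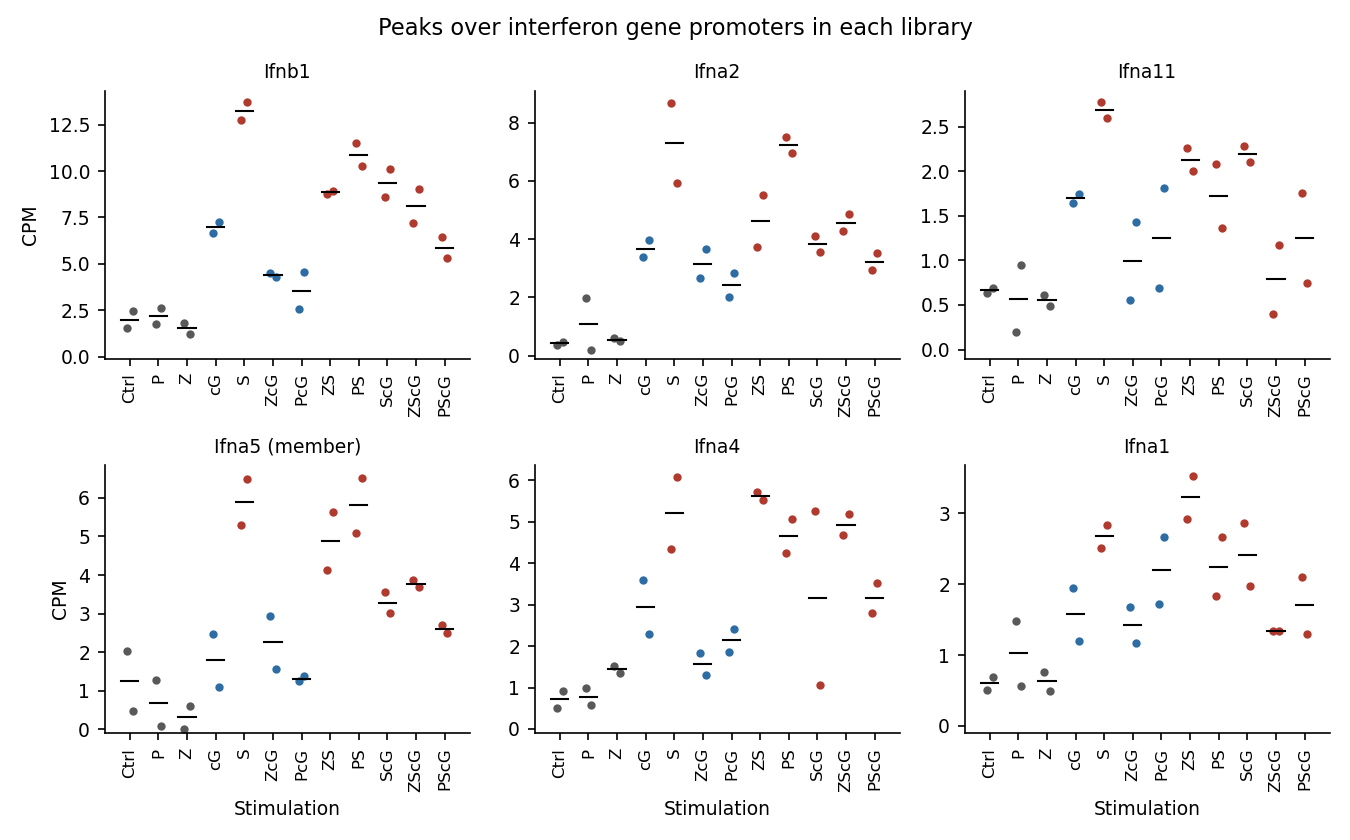
CPM (y axis) of the peaks over 6 interferon gene promoters in each library of 12 groups (x axis), drawn as in the plot of 6 members. The cG libraries at Ifnb1 and Ifna2 lie above the Ctrl libraries, while at Ifna5, the member, the cG libraries (2.46 and 1.11) overlap those of Ctrl (2.03 and 0.464).

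Members at the other listed genes were few. With 110 members among 116556 peaks, that shows nothing about these genes. The only other member at a listed gene lay inside Ifit1bl1 and Ifit1bl2 (chr19:34620963-34621162), relatives of the interferon-induced Ifit genes, with CPM of 1.13 and 2.44 in S, 0.127 and 0.232 in Ctrl, 0 and 0.823 in ZS and 0.306 and 0.368 in Z. For each listed gene the nearest peak within 1 kb of a start was taken. Of all tested peaks, ZS against Z called 6.63% higher and 8.53% lower. At the listed genes it called 9 of 20 interferon-stimulated genes higher and 1 lower. It also called 2 of 17 RNA sensing genes higher and 2 lower, and 1 of 7 cGAMP sensing genes higher and 2 lower. It called 2 of 13 inflammatory genes higher and 2 lower, 6 of 16 stress response genes higher and 3 lower, 2 of 13 cell death genes higher and 3 lower, and 0 of 5 chemokine and T-cell related genes. None of these promoter peaks was a member. In ZScG against ZcG none of the interferon-stimulated, RNA sensing and cGAMP sensing promoters was called in either direction. Over all tested peaks that contrast called 0.949% higher and 1.84% lower.

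Libraries held 19097027 to 39977088 counts, of which the mitochondrial peak took 44.1% to 63.1%. Over chromosomes 1 to 19 without their largest peak, 5973882 to 18387733 counts were left. Peaks within 1 kb of a start of the myeloid and dendritic markers were found at 6 of 14 genes (Ctrl CPM 3.26 to 20.5). Those of other cell types were found at 2 of 7 granulocyte genes (20.5 to 22.2), 2 of 6 T-cell genes (2.47 to 9.86), 1 of 4 B-cell genes (5.31), 1 of 3 NK-cell genes (18.7), 1 of 3 mast-cell genes (1.44) and 1 of 3 erythroid genes (13.8). The B-cell peak (Ebf1) and the erythroid peak (Klf1) lay 647 and 689 bases from the start. Of all these markers, ZS against Z called 0 higher, while it called 6.63% of all tested peaks higher and 8.53% lower. It called lower 2 myeloid and dendritic promoters, Itgax (-0.60 in log2, edgeR adjusted p of 0.00515) and Lyz2 (-0.86, edgeR adjusted p of 0.000223), 2 granulocyte promoters and 1 NK-cell promoter. Since an open promoter does not show expression, the cell type rests on the labels, and the part of other cells in the results was not tested.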

How the data were processed

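ATAC-seq counts were analysed for 36 libraries in 18 groups, assigned by sample title. Values in the deposited table are whole, unnormalized read counts. The submitters' processing notes name the mm10 build, Bowtie2 2.2.9, MACS2 1.4, bedtools and featureCounts. Whether peaks were called on pooled libraries, and how duplicates and insertion offsets were treated, is not given in the sources used here. All count columns were matched, with 0 unused. Coordinates follow the deposited peak list, shifted to a first base of 1.

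The members, gene lists and contrasts were chosen with earlier results of these data known. In the rule, the largest-count peak is the largest on chromosomes 1 to 19 (chr1:24611386-24616337). For the tests, the mitochondrial peak was left out, counts were filtered by filterByExpr (minimum count 10, which removed 286 peaks), TMM factors applied, and a quasi-likelihood model built with edgeR 4.0.16 (R 4.3.3), 1 coefficient per group over all libraries and a trended dispersion, and 14 contrasts were tested. The code was tested on simulated data. The named members follow a rule. First come the 12 highest d in S among members with both S libraries above both Ctrl libraries. Next are members called in all 3 contrasts that add virus, the 4 lowest in ZS against Z and those at listed genes. The rule adds those within 1 kb of a protein-coding gene's start and the 3 on each side of each threshold. It also takes the 3 highest and 3 lowest in H against Z, L against Z and PS against ZS. Others are named after their values were seen. Replicate pairs differed beyond counting noise (chi-square per degree of freedom 2.05 to 3.23). In the main fit, replicate numbers were not used to pair the libraries. Alternatives were other scalings, DESeq2 1.42.0, no filter, a replicate block, only the compared groups, the mitochondrial peak kept, the largest peak of chromosomes 1 to 19 left out, and each library left out.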

Additional observations from a re-analysis of the deposited data

How the results depend on the processing

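Membership depended on the settings. A pseudocount of 2 CPM left 6 members, 1 of them shared with the 110, and leaving out 1 library of S, Ctrl, cG or P gave 86 to 182, of which 42 to 97 were shared. TMM scaling gave 121 (91 shared), library size over all chromosomes without the mitochondrial peak, the largest of all, 76 (46 shared), and keeping the largest peak of chromosomes 1 to 19, added after the data were seen, 82 (54 shared).

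Counts of members called higher were within 1.5 times under relative log expression scaling, no filter, the mitochondrial peak kept or the largest peak of chromosomes 1 to 19 left out. With total-count scaling they were 3 in ZS against ZcG, 1 in PScG against ScG, 7 in H against Z and 15 in L against Z. Of all 119464 tested peaks, 1889, 10758, 6231 and 27124 were then called higher in these contrasts. Nothing about the members is read from these counts. That scaling moved the median of all peaks by 0.22 in ZS against Z and 0.45 in L against Z, and the share of all calls that were higher from 43.7% to 74.3% and from 42.1% to 92.4%. The same share went from 34.0% to 71.4% in ZScG against ZcG, 49.0% to 27.6% in PScG against PcG, 35.6% to 97.3% in ZS against ZcG, 24.3% to 3.04% in ZScG against ZS, 46.6% to 95.7% in PScG against ScG, 58.4% to 86.7% in PS against ZS and 27.7% to 93.8% in H against Z. The members' median minus that of all peaks was 1.54 and 0.30, against 1.55 and 0.32 with TMM. DESeq2 called 3 in ZScG against ZcG, 1 in PScG against PcG, 1 in PS against ZS and 1 in H against Z. Fits of only the compared groups called 9 in PScG against PcG, 8 in ZcG against Z, 1 in PScG against PS and 0 in H against Z. Shares of all peaks called by DESeq2 and in these fits are not given here, so these counts have no background beside them.

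Without 1 library the counts were 16 to 34 in ZS against Z, 4 to 13 in ZcG against Z, 0 to 4 in ZScG against ZcG, 0 to 2 in PScG against PcG, 0 to 1 in PS against PcG and PS against ZS, 0 to 3 in H against Z and 2 to 4 in L against Z; these fits hold 1 library in an arm, which is assumed to vary like the others. With a replicate block the counts were 45 in ZS against Z, 9 in ZScG against ZcG and 21 in ZcG against Z, and the block left the other counts as they were. Same-numbered libraries did not deviate together, with r of -0.018 to 0.013 over 45 pairs of the 10 groups in the tested contrasts. The other groups were not checked, and such values cannot tell whether these libraries shared a mouse, culture or day.

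Log2 fold changes that changed sign were none past the threshold. Near Ubxn2a in ZS against Z it was 0.11 with total-count scaling. Without 1 library, values in ZS against Z ran from -0.093 to 1.51 near Tas1r2, -2.08 to 0.24 near Cav2, -1.09 to 0.93 near Katnal1 (0.13 without ZS replicate 2), -0.54 to 0.25 near Ubxn2a and -0.14 to 0.59 near Rnf212. At Ifit1bl1 they ran from -4.98 to 1.14, where the first is a fit to a ZS library with no count and no size. At Ifna4 in ZcG against Z they ran from -0.11 to 0.37. The causes were not tested. At these counts, a median of 3 per member in Ctrl, differences below the spread between 2 libraries were not detectable.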
